A study of Mus musculus with 84 samples.

Results

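The genes examined here encode the Kv4 family of A-type potassium channels and its partner proteins. They were taken by name: the pore subunit genes Kcnd1, Kcnd2 and Kcnd3, the KChIP genes Kcnip1, Kcnip2, Kcnip3 and Kcnip4, and the DPP-like genes Dpp6 and Dpp10. These are 9 of the 19685 genes in the count table, and the rule for choosing them uses no measured value. The table held 84 single neurons of C57/BL6/N mice, drawn one by one into a patch-clamp pipette from acute slices of prefrontal cortex. Their poly(A) RNA was amplified by the aRNA procedure, a linear amplification by in vitro transcription, and made into stranded Illumina TruSeq libraries. All animals were untreated, no transgene is named, and the labels used here give neither age nor animal.

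The sample titles put 25 cells in a group F and 59 cells in a group P. No label spells out the letters, although the title of the series speaks of pyramidal and of fast-spiking neurons, so they are called F and P cells. Because no animal is named, cells of 1 group may share animals, and each group counts as 1 sample. The comparison of F with P cells therefore has no test across animals, and differences are given as measured, with intervals that cover cells or counts only.

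Kv4 channels carry the A-type current, a potassium current that switches on below spike threshold and inactivates fast. In cortical neurons this current delays the first spike, widens the gap between spikes and limits how far spikes travel back into dendrites. A native channel is a complex: Kcnd pore subunits form the conducting tetramer, KChIPs bind their cytoplasmic ends and change surface delivery and inactivation, and DPP6 or DPP10 span the membrane beside the pore and speed its opening. KChIPs are calcium-binding EF-hand proteins, and KChIP3, the product of Kcnip3, is also known as the transcriptional repressor DREAM and as calsenilin.

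The pore subunits are close relatives, which is shown for Kcnd1 and Kcnd2 by the coding bases around the potassium selectivity filter, the ring that lets potassium through and holds sodium back. Each stretch below has 66 bases on the sense strand of GENCODE M21 transcripts (GRCm38, which is mm10), was joined across exons 1 and 2, and is printed with capitals at the bases that differ from Kcnd2. Kcnd1 differed at 11 bases.
Kcnd2 (chr6:21217382-21714168, plus strand): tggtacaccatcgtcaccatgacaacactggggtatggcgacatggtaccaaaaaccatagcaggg
Kcnd1 (chrX:7824932-7831205, plus strand): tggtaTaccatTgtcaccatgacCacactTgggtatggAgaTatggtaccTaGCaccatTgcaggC
The stretches were placed by the letters GGNTANGGN, which cover the filter codons, searched in any frame on the sense strand and found once in frame in each. These letters alone are common, since 26% of 58797 coding transcripts hold them.

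The 4 KChIP genes share a core and differ at their starts. Over the last 540 coding bases, pairs of them were 71.5 to 75.7% identical. The stretch of 60 bases below, from that core, has 41 bases that are the same in all 4, and capitals mark the other positions.
Kcnip1 (chr11:33643326-33644517, minus strand, exons 4 and 5): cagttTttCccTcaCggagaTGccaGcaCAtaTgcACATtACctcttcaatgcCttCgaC
Kcnip2 (chr19:45794770-45794996, minus strand, exons 5 and 6): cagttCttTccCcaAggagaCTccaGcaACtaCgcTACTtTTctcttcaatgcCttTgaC
Kcnip3 (chr2:127465078-127465367, minus strand, exons 4 and 5): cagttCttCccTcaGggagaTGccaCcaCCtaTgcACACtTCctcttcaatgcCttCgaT
Kcnip4 (chr5:48409825-48419230, minus strand, exons 4 and 5): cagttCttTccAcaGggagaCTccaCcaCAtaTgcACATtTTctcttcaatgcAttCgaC

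DPP6 and DPP10 belong to the family of the serine peptidase DPP4 but cannot cut peptides, because the catalytic serine was replaced. The 69 coding bases around that position show the change, with the codon in capitals.
Dpp4 (chr2:62347879-62348530, minus strand): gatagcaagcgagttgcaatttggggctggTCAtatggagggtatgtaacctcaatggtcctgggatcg
Dpp6 (chr5:27718479-27721083, plus strand): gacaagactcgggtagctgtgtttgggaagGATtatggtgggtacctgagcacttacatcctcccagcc
Dpp10 (chr1:123341678-123352663, minus strand): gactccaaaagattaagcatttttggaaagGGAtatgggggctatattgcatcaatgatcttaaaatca
Dpp4 has a serine codon there, Dpp6 an aspartate codon and Dpp10 a glycine codon. The stretches join exons 21 and 22 and were placed by the letters TANGGNGGN just after the codon, which 23.9% of coding transcripts hold on the sense strand in any frame. Within the families the longest coding run shared without a mismatch was 29 bases for Kcnd1 and Kcnd3, 23 for Kcnd1 and Kcnd2 and for Kcnd2 and Kcnd3, 20 for Dpp6 and Dpp10, and 17 to 19 for KChIP pairs. Neither read length nor the handling of reads with several matches is stated in the sources used, so how far reads could be split between relatives is unknown.

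Depth varied widely. F libraries held 36594 to 12043599 counts (median 680044) and P libraries 19802 to 16251918 (median 2706396). The 16 F libraries numbered 13 to 28 stood apart: 27 genes had a count in at least 14 of them and in under 25% of the other 68 cells, none of these 27 was a Kv4 gene, and the median total of these libraries was 246319 counts against 2707087 in the other 9 F cells. Folds without these 16 libraries are given beside the other values of each measured Kv4 gene. The labels name 2 versions of the basecalling software, called the older batch (3 F and 6 P cells) and the newer batch (22 F and 53 P cells). Levels are given as counts per 1000000 counts of the cell (CPM). Mean CPM of Gad1, which makes GABA, was 1460 for F and 128 for P cells, and that of Slc17a7, the vesicular glutamate transporter of pyramidal cells, 12.8 and 202. All 15 measured GABAergic markers had the higher mean in F cells and all 15 glutamatergic markers in P cells, over all cells. Some of each list changed side in a single batch, such as Gad2, at a log2 fold of -0.12 in the newer, and Camk2a, at 0.42 in the older. Some GABAergic markers also changed side without the 16 F libraries. There were 7 F cells with no Gad1 count and 27 P cells with at least 1. Some cells with Gad1 had a single count, such as F8, F21 and F23 and also P32 and P41. Others had 2, such as F12, F25, F27 and P21, or 3, such as F11 and P37. High values were found in P cells too, with 4752 CPM in P67, 1958 CPM in P42 and 605 CPM in P22. In each F cell astrocyte markers summed to between 0 and 18170 CPM (median 185, Aldh1l1 at 0), and in each P cell to between 0 and 100013 CPM (median 918). Oligodendrocyte markers had medians of 27.3 CPM (F, up to 21411) and 11.3 CPM (P, up to 12420), and microglia markers 6.46 CPM (F, up to 44862) and 9.25 CPM (P, up to 16545). Endothelial markers had medians of 0.212 CPM (F, up to 3156, Pecam1 at 0) and 0.476 CPM (P, up to 1566). Their part in the Kv4 values was not tested.

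Most cells had no count of most Kv4 genes. The lowest value was 0 CPM in both groups for all 9, and the median was 0 CPM for every gene in both groups except Dpp10 in P cells, at 6.87 CPM. The groups therefore overlapped for each gene, and they differed in how many cells had a count and in how high the few high cells reached. In these single cells, a cell with fewer transcripts and a library that caught fewer of them cannot be told apart.

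**Figure D1:**
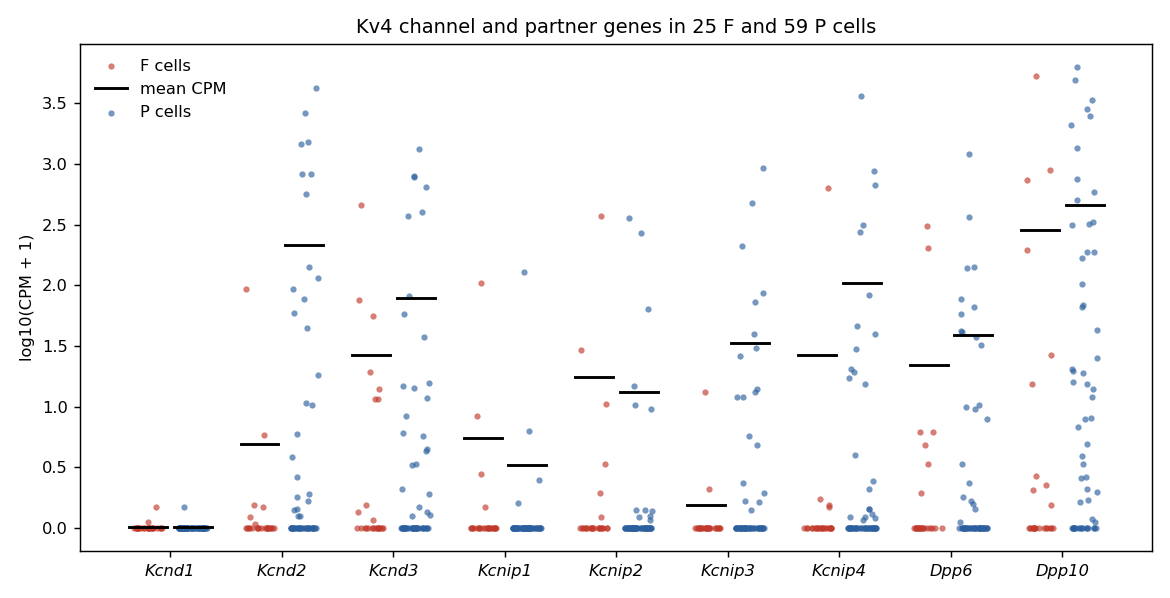
Level of each gene in every cell, as log10(CPM + 1), with F cells in red and P cells in blue, and black bars at the mean CPM of the group drawn on the same scale. Most cells sit at 0, and the highest P cells of Kcnd2 and Kcnip3 lie far above all F cells.

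Kcnd2, which encodes Kv4.2, the main Kv4 pore subunit of pyramidal cell dendrites, had the lowest log2 fold of F over P by mean CPM of the 9 genes. F cells spanned 0 to 91.6 CPM (median 0), and P cells 0 to 4203 CPM (median 0). Only 6 of 25 F cells had a count (24%, 95% Clopper-Pearson interval 9.36 to 45.1%), against 26 of 59 P cells (44.1%, 31.2 to 57.6%). Outside the 16 F libraries that stood apart, 5 of 9 F cells had a count (55.6%, 21.2 to 86.3%), a share above that of P cells. No F cell reached 100 CPM, while 9 P cells did. These 9 were mixed in their markers. P34 had 79.2 CPM of Slc17a7 and 10.97 CPM of Gad1, and P73 had 528 and 0.423 CPM. P3 had 19.95 CPM of Slc17a7 and 67.2 CPM of Gad1, and P67 had no Slc17a7 count and 4752 CPM of Gad1.
F5, with 100 of the 132 counts in F cells, made 93.6% of the F sum of CPM, and 16 P cells had at least 10 counts against 2 F cells. Mean CPM was 3.91 for F (SD over cells 18.3, n = 25) and 213 for P cells (SD 694, n = 59), a log2 fold of F over P of -5.44 after adding 1 CPM to each mean. Each SD exceeds its mean, because a few cells carry it. Leaving out 1 cell at a time kept the fold between -7.41, without F5, and -4.89, without P34, the highest P cell. It was -6.65 in the older batch, -5.32 in the newer batch and -4.18 without the 16 F libraries, and it stayed past 2-fold under all 13 alternatives listed with the methods.

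Kcnd3, which encodes Kv4.3, a pore subunit common in interneurons and also present in pyramidal cells, was found about as often in both groups. F cells spanned 0 to 462 CPM and P cells 0 to 1336 CPM, with a median of 0 in both. At least 1 count was seen for 10 of 25 F cells (40%, 21.1 to 61.3%) and for 26 of 59 P cells (44.1%, 31.2 to 57.6%). These intervals overlap over most of their width.
Mean CPM was 25.8 for F (SD 92.6) and 77.8 for P cells (SD 242), a log2 fold of -1.56. A single cell made much of the F mean: F24, which also had 3151 CPM of Gad1, held 977 counts and 71.6% of the F sum of CPM. The fold was -3.19 without F24 and -1.09 without P68, the highest P cell, which had 1442 CPM of Slc17a7. Without the 16 F libraries, which include F24, it was -2.61. It turned to 0.81 in the older batch (3 F and 6 P cells), and it was -0.01 with means trimmed by 20% at each end, so the direction of Kcnd3 rests on the few high cells.

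Kcnd1, which encodes Kv4.1, was close to absent from the table. One count was present in each of 2 F cells (8%, 0.984 to 26%) and in 1 P cell (1.69%, 0.0429 to 9.09%), so it fell short of the 8 cells asked of a measured gene. With 2 counts in all F and 1 in all P cells, the ratio of pooled CPM was 9.43, with a 95% counting interval of 0.491 to 557. No difference was detectable at this depth.

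Among KChIPs, Kcnip3 showed the same tilt as Kcnd2. The F range was 0 to 12.3 CPM and the P range 0 to 932 CPM, both with a median of 0. Only F2, with 6 counts, and F26, with 1 count in a library of 81302, had any (8%, 0.984 to 26%), against 19 of 59 P cells (32.2%, 20.6 to 45.6%). The highest P cells were P38 with 1023 counts and P16 with 4071, and 12 P cells but no F cell had at least 10 counts.
Mean CPM was 0.535 for F (SD 2.46) and 32.7 for P cells (SD 137), a log2 fold of -4.45. Summed over cells there were 7 counts in F and 9045 in P, and the ratio of pooled CPM was 0.00365 (counting interval 0.00147 to 0.00752). With 1 cell left out the fold ran from -5.01 to -3.56, and it was -3.10 in the older batch, -4.54 in the newer batch and -4.91 without the 16 F libraries. With trimmed means, which drop most cells that had the gene, it was -0.71 and no longer 2-fold.

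Kcnip4, whose product KChIP4 has forms that slow Kv4 inactivation, was found in 4 of 25 F cells (16%, 4.54 to 36.1%) and 23 of 59 P cells (39%, 26.5 to 52.6%). Its CPM went up to 633 among F cells and to 3668 among P cells. The F value was that of F7 alone, with 5501 counts or 99.7% of the F sum of CPM. The other 3 F cells with the gene had at most 4 counts each.
Mean CPM was 25.4 for F (SD 127) and 103 for P cells (SD 495), a log2 fold of -1.97. On the P side 1 cell, P26, held 8286 counts and 60.5% of the sum. The fold was -0.68 without P26 and -6.59 without F7, -0.54 without the 16 F libraries, -0.14 with pooled counts, and 0.24 with TMMwsp scaling factors. The share of cells with Kcnip4 and the mean thus answer differently to the choice of cells and scale.

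Kcnip2, which encodes KChIP2, the KChIP of the heart that is also made in cortical neurons, did not tilt one way. The groups reached like heights, 370 CPM for F and 355 CPM for P, and 6 of 25 F cells (24%, 9.36 to 45.1%) and 12 of 59 P cells (20.3%, 10.98 to 32.8%) had a count. The highest cell of each group had Gad1: F1 held 1744 counts beside 5110 CPM of Gad1, and P42 held 799 counts beside 1958 CPM of Gad1 and 111 CPM of Slc17a7.
F cells averaged 16.5 CPM (SD 73.9) and P cells 12.2 CPM (SD 57.97), a log2 fold of 0.40. F1 made 89.9% of the F sum. The fold was -2.28 without F1 and 1.25 without P42, 3.29 in the older batch, which holds F1, and -2.43 in the newer one. Without the 16 F libraries it was 1.81. No direction for Kcnip2 held across these choices.

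Kcnip1, which encodes KChIP1, a form known from interneurons, was the rarest KChIP, with 4 cells in each group (16%, 4.54 to 36.1%, of F and 6.78%, 1.88 to 16.5%, of P cells). The highest F cell had 103 CPM and the highest P cell 129 CPM, and 1 cell in each group made over 90% of the sum. F8 had 70 counts with 1.47 CPM of Gad1, and P72 had 561 counts with 0.229 CPM of Gad1 and 410 CPM of Slc17a7.
F cells averaged 4.50 CPM (SD 20.6) and P cells 2.31 CPM (SD 16.7), a log2 fold of 0.74 that became -1.24 without F8 and 2.29 without P72. It was 4.18 with TMMwsp factors, 2.03 without the 16 F libraries, -0.32 with pooled counts and 0 with trimmed means. Kcnip1 overlaps Kcnmb1 on the opposite strand. Kcnmb1 had a count in all 16 of the F libraries that stood apart and in 3 other cells, while Kcnip1 was found in 1 of those 16, and 2 cells had both genes. The sources used do not say whether the authors' counting used strand.

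Dpp10 was the most often found Kv4 gene. F cells spanned 0 to 5279 CPM (median 0) and P cells 0 to 6303 CPM (median 6.87). At least 1 count was seen for 10 of 25 F cells (40%, 21.1 to 61.3%) and for 42 of 59 P cells (71.2%, 57.9 to 82.2%), and 4 F and 17 P cells reached 100 CPM. When each F cell was set against each P cell, 1475 pairs in all with ties split evenly, the P cell was higher in 66.3%.
The means were close by comparison, 286 CPM for F (SD 1065) and 460 CPM for P (SD 1209), a log2 fold of -0.69. F18 made 73.8% of the F sum with 2084 counts in a library of 394790, and that cell had no Gad1 count and 162 CPM of Slc17a7. Without F18 the fold was -2.55. It was -1.91 without the 16 F libraries, which include F18, -0.47 in the older batch and -0.67 in the newer one. Dpp10 stayed lower in F cells under all 13 alternatives, but by mean CPM by less than 2-fold over all cells and in each batch alone. Other scales over all cells put it past 2-fold. It was -1.73 with pooled counts, -4.31 with trimmed means, -1.89 with mean log2 values and -2.81 with TMMwsp factors.

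Dpp6 did not tilt one way. The top F cell had 308 CPM and the top P cell 1210 CPM, and Dpp6 was found in 7 of 25 F cells (28%, 12.1 to 49.4%) and 22 of 59 P cells (37.3%, 25.04 to 50.9%). The highest P cell, P67, held 54.01% of the P sum with 2567 counts, and it had 4752 CPM of Gad1 and no Slc17a7. The highest F cell was F2, with 1703 counts.
F cells averaged 21.1 CPM (SD 71.9) and P cells 37.98 CPM (SD 165), a log2 fold of -0.82. It was 0.23 without P67, -1.95 without F2, 1.51 in the older batch, -1.88 in the newer batch, 0.60 without the 16 F libraries and 0.15 with pooled counts.

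**Figure D2:**
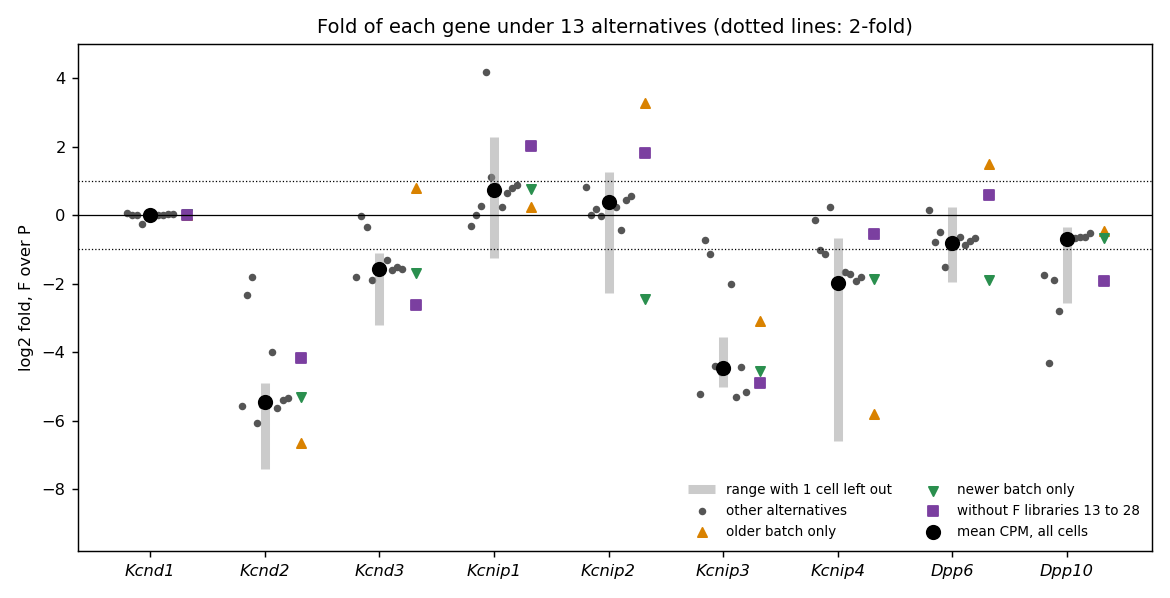
Log2 fold of F over P for each gene by mean CPM over all cells (black), with the range when 1 cell is left out (grey bar), each batch alone, without the F libraries 13 to 28, and under the other alternatives. Kcnd2, Kcnip3 and Dpp10 lie below 0 throughout, Kcnip1, Kcnip2 and Dpp6 fall on both sides, and Kcnd3 and Kcnip4 cross 0 under 1 alternative each.

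Set against the whole table by mean CPM, the 9 genes had shares of higher and lower genes near those of all genes. Of the 9 genes, 3 had the higher mean in F cells (Kcnd1, Kcnip1 and Kcnip2), where 34.7% of the 11324 measured genes did. None of the 9 was at least 2-fold higher in F cells, where 18.5% of measured genes were, and 4 were at least 2-fold lower (Kcnd2, Kcnd3, Kcnip3 and Kcnip4), where 46.4% were. The median log2 fold of the 9 was -0.82, and that of all measured genes was -0.79. Kcnd1, 1 of the 3 genes higher in F cells, is not a measured gene, and each median of the 9 counts it. Without Kcnd1, the middle of the other 8 lies between -1.56 (Kcnd3) and -0.82 (Dpp6), so the match to -0.79 depends on it. The count of 4 is close to the share of the whole table and says nothing particular of the family. Other scales set the 9 further from the rest: their median was -1.85 against -1.01 for all measured genes in the newer batch, -1.50 against -0.82 with TMMwsp factors and -0.71 against 0 with trimmed means. By mean log2 values 4 of the 9 were at least 2-fold lower, against 9.79% of all measured genes, and with trimmed means 3, against 13.4%. In the older batch the median of the 9 was 0 against -0.32. That 0 is the value of Kcnd1, which had no count in the batch, and its neighbours were Dpp10 at -0.47 and Kcnip1 at 0.25. By the fold of mean CPM over all cells, Kcnd2 stood at percentile 3.60 of all measured genes and Kcnip3 at percentile 7.74. On the same scale, counted from the genes lowest in F cells, Kcnip1 stood at percentile 77.9 and Kcnip2 at 72.8.

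**Figure D3:**
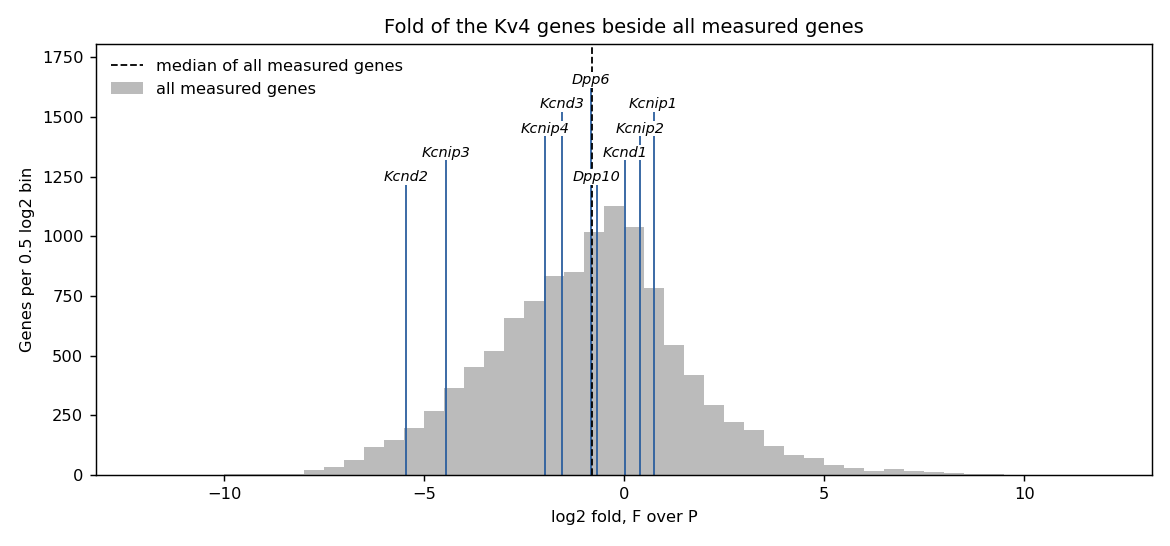
Histogram of the log2 fold of F over P over all 11324 measured genes (grey), with a blue line at each Kv4 gene and a dashed line at the median of -0.79. Kcnd2 and Kcnip3 lie in the lower tail, and Dpp6 and Dpp10 lie beside the median.

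F libraries were shallower, so detection was also compared at equal depth. Every cell was reduced to 86539 counts by calculation, which left 22 F and 53 P cells and left out 3 F and 6 P cells below that depth. Kcnd2 was then expected in 6.65% of F and 30.2% of P cells, Kcnip3 in 0.410 and 21.6%, Kcnip4 in 5.23 and 23.7%, and Dpp10 in 23.4 and 54.2%. For these 4 genes the lower share in F cells was present at equal depth too. Kcnd3 was even, at 24.7% of F and 25.3% of P cells, and Dpp6 stood at 14.9 and 25.5%. Kcnip1, at 7.59% of F and 2.95% of P, and Kcnip2, at 12.7 and 9.42%, were expected more often in F cells.
The 16 F libraries that stood apart had few Kv4 counts: Kcnd2, Kcnip1, Kcnip3, Kcnip4 and Dpp6 were each found in 1 of them, Kcnip2 in 2, and Kcnd3 and Dpp10 in 4 each. In the other 9 F cells, Kcnd2 was found in 5, Dpp6, Dpp10 and Kcnd3 in 6 each, and Kcnip3 in 1. Before the reduction to equal depth, these shares were above those of P cells for Kcnd2, Dpp6 and Kcnd3. They were below those of P cells for Dpp10 and Kcnip3. At equal depth those 9 cells gave 15.8% for Kcnd2, 1.00% for Kcnip3, 12.3% for Kcnip4 and 26.4% for Dpp10, all below the P cells. The same 9 cells gave 32.3% for Dpp6, 28.8% for Kcnd3, 27.9% for Kcnip2 and 18.1% for Kcnip1, all above the P cells.

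**Figure D4:**
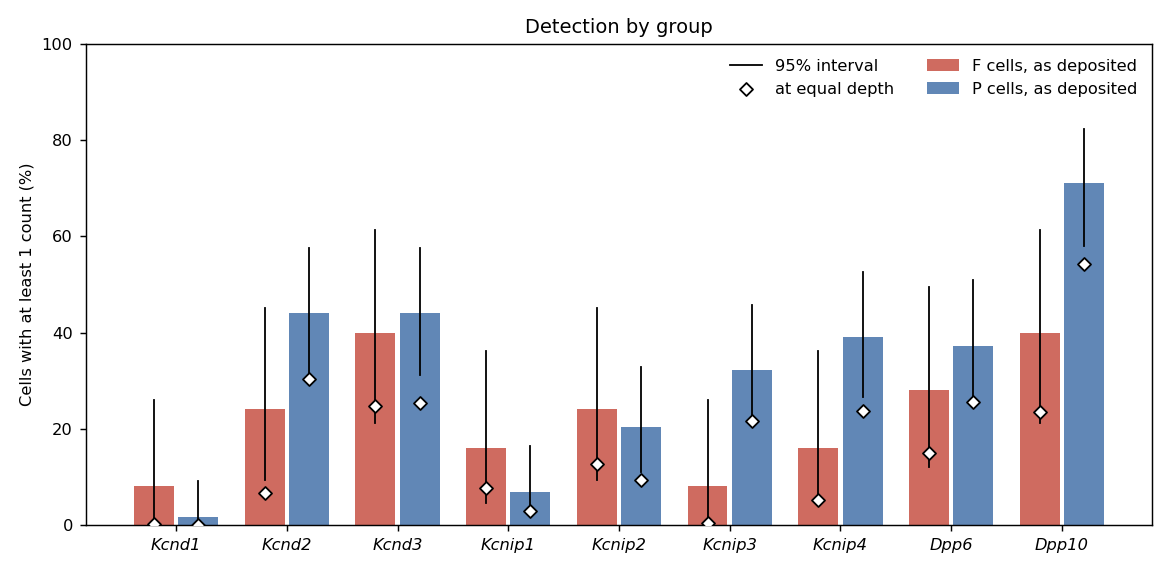
Percent of F cells (red) and P cells (blue) with at least 1 count of each gene, with exact 95% intervals over cells, and diamonds for the share expected after every cell is reduced to the same depth. For Kcnd2, Kcnip3, Kcnip4, Dpp6 and Dpp10 the diamond of P cells lies above that of F cells, for Kcnip1 and Kcnip2 below it, and for Kcnd3 the pair is level.

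Levels can be compared between genes only per length, so mean CPM was divided by the exon length of each gene, in kilobases. Amplified RNA is rich in 3′ ends, which makes this scale rough. In P cells Kcnd2 came first at 41.3 CPM per kilobase, then Dpp10 at 29.2, Kcnip4 at 28.3, Kcnip3 at 9.21, Kcnd3 at 8.12, Kcnip2 at 3.52, Dpp6 at 3.08, Kcnip1 at 0.372 and Kcnd1 at 0.00159. In F cells Dpp10 came first at 18.1 CPM per kilobase, then Kcnip4 at 6.999, Kcnip2 at 4.74, Kcnd3 at 2.69, Dpp6 at 1.71, Kcnd2 at 0.760, Kcnip1 at 0.726, Kcnip3 at 0.151 and Kcnd1 at 0.00445. Between each gene and the next in either order the gap was smaller than the SD over cells. Each SD exceeded its own mean, so this could not come out otherwise and does not weigh the order. Whether neighbours differ was not tested. The Kcnip4 place in F cells is that of F7, and the Kcnip2 place that of F1.

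Within a cell, 1 gene often made over 90% of a family's signal. Per length, a single Kcnd gene gave over 90% of the pore subunit signal in 8 of the 11 F and 35 of the 40 P cells with any Kcnd count. Kcnd2 led in 22 P cells and Kcnd3 in 17, and in F cells Kcnd3 led in 7 and Kcnd2 in 4. In cells with at least 10 Kcnd counts, 1 gene gave over 90% in 5 of 5 F and 22 of 25 P cells. Low counts favour such one-sided cells, since a cell with 1 count can show only 1 gene.
Among KChIPs a single gene passed 90% in 6 of 9 F and 24 of 36 P cells. Kcnip3 led in 14 P cells and Kcnip4 in 13, with Kcnip2 in 7 and Kcnip1 in 2, while in F cells Kcnip2 led in 5, Kcnip4 in 2, and Kcnip1 and Kcnip3 in 1 each. Of the DPP-like genes, Dpp10 led in 34 P and 7 F cells and Dpp6 in 13 P and 4 F cells. A single DPP-like gene passed 90% in 8 of 11 F and 37 of 47 P cells. With at least 10 counts of the family it did so in 4 of 7 F and 27 of 35 P cells.

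Kcnd2 and Kcnd3 had a count together in 17 cells, 53.1% of the 32 with Kcnd2 and 47.2% of the 36 with Kcnd3. At 10 or more counts of each they met in 7 cells, of 18 and 19. Over the 75 cells reduced to the same depth their Spearman rho was -0.14, a value too weak to read in counts this sparse. The pair that met most was Kcnd2 with Dpp10, in 28 cells, which is 87.5% of the cells with Kcnd2 and 53.8% of the 52 with Dpp10. Kcnip4 met Dpp10 in 24 of its 27 cells. The highest rho within the family was 0.40, for Kcnip4 with Dpp6 (18 cells with both), then 0.37 for Kcnip3 with Dpp6 and 0.35 for Kcnd2 with Kcnip4. All are over the same 75 cells, which share amplification and group, so they are descriptions.
A count of at least 1 pore, 1 KChIP and 1 DPP-like gene was present in 6 of 25 F cells (24%, 9.36 to 45.1%) and 27 of 59 P cells (45.8%, 32.7 to 59.2%). Of the 6 F cells, 5 were among the 9 outside the 16 libraries that stood apart, and 1, F24, was among the 16. The share in those 9 cells was 55.6% (21.2 to 86.3%), above that of P cells. With at least 10 counts for each family the numbers were 3 F (12%) and 13 P cells (22.03%). All 3 F cells were among those 9 (33.3%, 7.49 to 70.1%). No Kv4 gene at all was found in 8 F and 8 P cells. The median number of the 9 genes per cell was 1 in F and 3 in P cells, and 4 in the 9 F cells outside the 16 libraries. F24 and P2 held 8 of the 9.

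**Figure D5:**
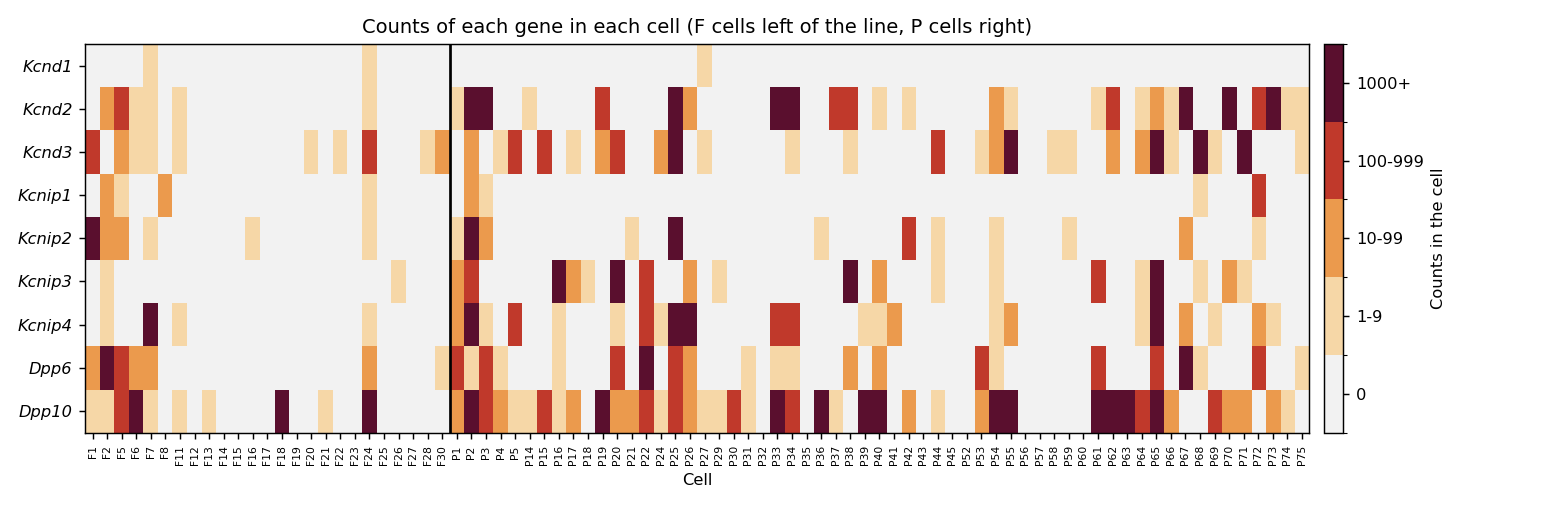
Counts of the 9 genes in each of the 84 cells, in shades that change at 1, 10, 100 and 1000 counts, with F cells left of the black line and P cells right. Dark boxes of Kcnd2, Kcnip3 and Dpp10 stand mostly on the P side, and 7 of the 16 F libraries from 13 to 28 have no box.

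Genes with a pattern like that of a Kv4 gene were looked for where at least 20 of the cells at equal depth had it, which only Dpp10 met, with 33 of 75. Of 1684 genes compared, the highest Spearman rho was 0.48 for Capza2, 0.48 for Sfrs18 and 0.48 for Clk1, and over the 53 P cells alone the values were 0.43, 0.43 and 0.58.

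Other genes tied to A-type current or to the Kv4 complex were counted from fixed lists. Of 6 other A-type and fast potassium channel genes, all measured, 4 had the higher mean in F cells, 2 of them at least 2-fold, and 1 was at least 2-fold lower, with a median log2 fold of 0.45. Of the 6, 66.7% were thus higher in F cells, against 34.7% of all measured genes, 33.3% at least 2-fold higher, against 18.5%, and 16.7% at least 2-fold lower, against 46.4%. Kcna4, the pore gene of the other classical A-type channel, Kv1.4, had mean CPM of 15.5 (F) and 14.02 (P), a log2 fold of 0.14 that ran from -1.41, without F5, to 3.03, without P69. Kcnab1, whose product can give Kv1 channels A-type inactivation, had mean CPM of 301 (F) and 29.3 (P), a log2 fold of 3.32, the opposite side to Kcnd2. Kcnab1 stayed on that side, at 1.53 without F30, 0.36 in the older batch, 3.40 in the newer and 4.64 without the 16 F libraries. The related beta subunit genes Kcnab2 and Kcnab3 had log2 folds of 0.75 and -0.17, and neither kept its side. Kcnab2 was -3.04 without F14, -2.59 without the 16 F libraries and -1.19 in the older batch. Kcnab3 was -3.30 without F2 and 1.87 without P72, 2.12 in the older batch, -3.20 in the newer and 1.19 without the 16 F libraries.
Of 22 genes of other Kv4 partners and regulators, 19 were in the table and 17 measured. Of these, 4 had the higher mean in F cells, 2 of them at least 2-fold, and 8 were at least 2-fold lower, with a median log2 fold of -0.39. These are shares of 23.5%, 11.8% and 47.1%, against 34.7%, 18.5% and 46.4% of all measured genes. Akap5, the scaffold that brings protein kinase A to Kv4.2, had mean CPM of 7.48 (F) and 195 (P), a log2 fold of -4.53, and it was found in 3 F and 26 P cells. Akap5 was -2.52 without P30, -7.07 without F5 and -3.25 without the 16 F libraries. The kinase genes Prkcb and Prkacb had log2 folds of -0.10 and -0.39. Prkcb was -1.41 without F23, -1.28 in the older batch, 0.04 in the newer and -2.35 without the 16 F libraries. Prkacb was -0.94 without F6, 0.10 without P15, 1.84 in the older batch, -1.72 in the newer and 0.80 without the 16 F libraries.
Of 6 relatives of the DPP-like genes, 5 were measured: 2 were at least 2-fold higher and 2 at least 2-fold lower in F cells, with a median of -0.27. Each count is 40% of the 5, against 18.5% of all measured genes for higher and 46.4% for lower. Dpp9, a cytosolic peptidase, had mean CPM of 74.2 (F) and 15.3 (P) and was found in 23 of 25 and 47 of 59 cells, a log2 fold of 2.21. Dpp8, its nearest relative, had a log2 fold of -3.49 (-0.11 in the older batch, -2.44 without P69), and the lysosomal Dpp7 one of -2.43. Dpp3 was at -0.27, -4.31 in the older batch and 0.48 in the newer, -1.35 without F5 and 0.56 without the 16 F libraries. Without those libraries Dpp9 was at 1.26, Dpp8 at -3.51 and Dpp7 at -2.70.

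The genes lie on 8 chromosomes (GENCODE M21, mm10). Kcnd1 (ENSMUSG00000009731.4) is at chrX:7822289-7838280 on the plus strand, Kcnd2 (ENSMUSG00000060882.5) at chr6:21215503-21729805 on the plus strand, and Kcnd3 (ENSMUSG00000040896.16) at chr3:105452330-105674002 on the plus strand. Kcnip1 (ENSMUSG00000053519.15) is at chr11:33629339-33993152, Kcnip2 (ENSMUSG00000025221.15) at chr19:45791839-45816061, Kcnip3 (ENSMUSG00000079056.12) at chr2:127456498-127522094 and Kcnip4 (ENSMUSG00000029088.16) at chr5:48389502-49524907, all on the minus strand. Dpp6 (ENSMUSG00000061576.15) is at chr5:26817203-27727505 on the plus strand and Dpp10 (ENSMUSG00000036815.16) at chr1:123321471-124045559 on the minus strand. Kcnd3 has an antisense gene, Kcnd3os, over its start, and Kcnip4 spans 1135406 bases and overlaps 31 other annotated genes, 7 of them on the opposite strand.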

How the data were processed

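The deposited table holds counts per gene and cell: whole numbers that the authors made from reads aligned with STAR 2.4.0 to mm10, per the submitters' processing notes, after basecalling with bcl2fastq 1.8.4 or 2.17. Of the counting tool, gene annotation, strand setting and filters, the sources used say nothing. Groups come from the sample titles. The genes, lists and alternatives were chosen with earlier results of these data known.

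Counts were divided by the library total and multiplied by 1000000 (CPM), in Python 3.11.15 with numpy 2.4.6, scipy 1.17.1 and pandas 2.3.3. A gene was called measured with a count in at least 8 of the 84 cells. Folds are log2 of mean CPM + 1 in F over mean CPM + 1 in P cells, and were computed for all genes. No test was run, because the labels name no animal and each group is 1 sample. Shares of cells have exact Clopper-Pearson 95% intervals over cells, and pooled ratios have exact conditional intervals that cover counting error only. Detection at equal depth is the hypergeometric expected share of cells with at least 1 count after thinning to 86539 counts per cell, and correlations used 1 seeded draw at that depth. The fold script was tested on simulated counts. That test set changes only in genes with higher mean levels and subtracted the median fold, so it does not cover genes with counts in few cells.

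The 13 alternatives were pooled counts, means trimmed by 20%, mean log2 values, TMMwsp factors (edgeR 4.0.16 in R 4.3.3), totals without the 20 highest genes or without Rn45s, a pseudocount of 10, thinned cells, each basecaller version alone, without F libraries 13 to 28, F11 and F12 averaged, and without libraries under 100000 counts. Each cell was also left out in turn. Named genes were all 9 Kv4 genes, the 4 measured genes with the highest mean CPM of each pathway list, the 3 genes most like each Kv4 gene found in at least 20 thinned cells, and Gad1, Gad2, Slc17a7 and Camk2a. Kcnmb1, Aldh1l1 and Dpp4 were named outside that rule, Kcnmb1 and Aldh1l1 after their values were seen. Mean CPM of Gad2 was 445 (F) and 103 (P), and that of Camk2a 43.1 and 126. Protein sequences were not used here. One gene that the naming rule picks and 1 coding stretch are not reported here.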

Additional observations from a re-analysis of the deposited data

How the results depend on the processing

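Over the alternatives and leave-one-out ranges, 95 of the values for single-gene folds kept direction and side of the 2-fold limit, 16 passed that limit, 6 fell short of it and 12 changed sign where the fold was under 2. Another 4 were exactly 0: Kcnd1 with trimmed means, thinned cells and the older batch, and Kcnip1 with trimmed means. A called fold reversed for Kcnd3 in the older batch, to 0.81, and for Kcnip4 with TMMwsp factors, to 0.24. The number of Kv4 genes with the higher mean in F cells was 3, and became 1 with trimmed means and 1 with thinned cells. Of all measured genes, 18.7% were higher in F cells with trimmed means and 33.6% with thinned cells. The number at least 2-fold higher in F cells was 0, and became 1 with TMMwsp factors and 1 with totals without the 20 highest genes. It became 2 in the older batch and 2 without F libraries 13 to 28. Of all measured genes, 20.9%, 19.5%, 21.4% and 19.3% were at least 2-fold higher under these alternatives, in that order. Leaving out 1 cell gave 2 to 4 genes higher, 0 to 1 at least 2-fold higher and 3 to 5 at least 2-fold lower. The number at least 2-fold lower was 4, where 46.4% of all measured genes were, and ran from 3 to 6 over the alternatives. It was 6 in the newer batch, where 50.2% of all measured genes were at least 2-fold lower. It was 3 with trimmed means, against 13.4%, and 3 in the older batch, against 41.01%. The cause was not tested. Over all measured genes the median fold, -0.79, became -1.01 in the newer batch, -0.32 in the older batch and 0 with trimmed means. With at least 5 counts asked at equal depth, P cell shares became 9.51% for Kcnip3, 12.46% for Kcnip4, 12.99% for Dpp6 and 35.4% for Dpp10. F cell shares were 2.5e-08%, 4.55%, 9.09% and 18.2%, in that order. In the 9 F cells outside the 16 libraries, Kcnip4 stood at 11.1%, close to P cells, and Dpp6 at 22.2%, above them. Kcnip3 at 6.1e-08% and Dpp10 at 22.2% stayed below P cells there. Most F libraries are shallow, so a gene at 0 there may lie under the limit of detection. No paired analysis was possible because the results come from no test and the sample numbers only name cells.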
